A study of Mus musculus with 9 samples.

Results

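The kidney's conjugation enzymes were followed through hindlimb unloading and treatment of unloaded mice with 4-PBA (4-phenylbutyrate, a chemical chaperone). Members were chosen by gene symbol among protein-coding genes. They were UDP-glucuronosyltransferases (Ugt) of the Ugt1, Ugt2 and Ugt3 groups, cytosolic sulfotransferases (Sult), Nat8 N-acetyltransferases, and carboxylesterases (Ces) of the Ces1 and Ces2 groups. Ces3a, Ces3b, Ces4a, Ces5a and Ugt8a lay outside the rule. The rule found 66 of 54532 genes in the table, of which 22046 are protein-coding. They were 21 Ugt, 21 Sult, 9 Nat8 and 15 Ces genes.

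All mice were 4-month-old C57BL/6J males with no transgene or deletion named in the labels. The PBA group was suspended by the hindlimbs, a ground model of weightlessness, and given 100 mg/kg of 4-PBA a day into the peritoneum. The HU group was suspended and given vehicle, and the GC group stayed on the ground untreated. Each group had 3 poly(A)-selected kidney libraries. Suspension is thus shared by PBA and HU. The duration of suspension is not given in the sources used here, and nothing states that each library is 1 mouse, so p-values measure only the spread between these libraries.

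The enzymes of these families chemically tag or split small molecules so that they can leave the body. Ugt enzymes sit in the endoplasmic reticulum and attach glucuronic acid or another sugar, and Sult enzymes in the cytosol attach sulfate taken from the donor PAPS. Nat8 acetylates cysteine conjugates in the endoplasmic reticulum of the proximal tubule, the last step in making the mercapturates that are excreted in urine. Ces enzymes hydrolyse esters of drugs and of lipids. The kidney's share of this work lies mainly in the proximal tubule, which takes up organic anions and xenobiotics from blood and filtrate.

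The members lie largely in clusters of near relatives: all 15 Ces genes on chromosome 8, 8 of 9 Nat8 genes on chromosome 6, 10 Ugt2 genes on chromosome 5 and the 9 overlapping Ugt1a genes on chromosome 1. Of the 66 members, 56 matched a RefSeq promoter of the build GRCm38.p6, with 62 windows from 250 bases before to 50 after a start. Ces1d, Ces1f, Ces2b, Nat8l, Sult2a1, Sult2a2, Sult2a7, Sult4a1, Ugt1a6b and Ugt3a2 had no entry. The 150 bases before the start are printed for 5 members: the pair that was lower in HU and higher again in PBA (Nat8f1, and Nat8 at the one of its listed starts that carries a motif), the leading Ugt gene with its near neighbour (Ugt2b38 and Ugt2b37), and the leading Sult gene (Sult1d1), whose groups overlapped. All 5 lie on the minus strand: Nat8f1 at chr6:85915633-85915782, Nat8 at chr6:85832280-85832429, Ugt2b38 at chr5:87424204-87424353, Ugt2b37 at chr5:87254789-87254938 and Sult1d1 at chr5:87569007-87569156. Capitals mark GTTAAT, a core that HNF1 factors bind, or AGGTCA, a core that many nuclear receptors bind.
Nat8f1: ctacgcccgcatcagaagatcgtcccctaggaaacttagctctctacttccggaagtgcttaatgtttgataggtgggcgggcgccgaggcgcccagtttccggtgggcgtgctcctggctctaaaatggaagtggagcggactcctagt
Nat8: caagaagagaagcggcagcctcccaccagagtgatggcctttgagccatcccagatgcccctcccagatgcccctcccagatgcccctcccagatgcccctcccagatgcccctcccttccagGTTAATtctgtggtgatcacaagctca
Ugt2b38: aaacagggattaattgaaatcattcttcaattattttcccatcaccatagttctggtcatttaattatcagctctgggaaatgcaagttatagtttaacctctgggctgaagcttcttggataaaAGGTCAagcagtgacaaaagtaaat
Ugt2b37: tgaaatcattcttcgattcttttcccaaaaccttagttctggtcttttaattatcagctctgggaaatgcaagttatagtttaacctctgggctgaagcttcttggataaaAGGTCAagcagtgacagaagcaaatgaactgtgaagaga
Sult1d1: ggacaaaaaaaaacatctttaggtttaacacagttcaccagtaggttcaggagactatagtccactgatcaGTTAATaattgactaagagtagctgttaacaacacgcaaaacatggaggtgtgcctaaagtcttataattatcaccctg
GTTAAT, searched on both strands (ATTAAC on the other), was present in 15 of the 62 member windows (24.2%) and in 7.10% of 32851 promoters of the same length. AGGTCA or its reverse TGACCT was also present in 15 of 62 windows (24.2%), against 16.3% of all promoters. The motifs can share at most 1 letter. Most windows with GTTAAT belonged to members too low to be tested: Sult2a3, Sult2a5, Sult2a6, Sult3a2, Ugt1a1, Ugt1a10, Ugt1a6a, Ugt1a9 and Ugt2a3. Of the members that fell in HU and had an entry, only Nat8 carried it. Neighbouring members share sequence, so the windows are not independent. Those of Ugt2b37 and Ugt2b38 were 87.3% identical and carried AGGTCA within the same run of shared letters. Its distance from the start differed between them. A match is a description of letters only.

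The libraries held 7595631 to 15141784 reads on genes. Mitochondrial transcripts took 67.1% of the reads in PBA3, 63.7% to 79.3% in the HU libraries and 49.7% in GC3, against 13.7% to 18.9% in PBA1, PBA2, GC1 and GC2. PBA3 and GC3 thus stood apart from their groups on the side of HU. The tissue label was checked against 14 proximal tubule markers, all of which were detected; their summed level was 1106 to 3903 FPKM in PBA, 1029 to 1328 in HU and 3355 to 4179 in GC libraries. FPKM are reads per kilobase of gene, scaled here by a constant of each library that the authors set. All 5 stromal markers lay above GC in every HU library, as did 18.3% of all genes tested. The stromal sums were 23.4 to 324 FPKM in PBA, 222 to 462 in HU and 29.6 to 59.1 in GC libraries. The sum of 9 adipocyte markers was highest in GC2 (744 FPKM) and PBA3 (502 FPKM), and 0 of 8 adrenal cortex markers reached the level for testing. The part of these cells in the results was not tested. In bulk tissue, fewer cells of a type and less RNA per cell cannot be told apart.

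Of the 66 members, 29 reached at least 1 FPKM in at least 3 of the 9 libraries and were tested: 7 Ugt, 5 Sult, 8 Nat8 and 9 Ces genes. The other 37 peaked at 2.22 FPKM (Ces1b in HU1), 9 of them were listed at 0 in every library, and 15 had at most 3 reads in all. Tested members passed through libraries of several groups, except Ces1c, Sult2a4 and Sult2b1, which passed through the HU libraries alone and so had to differ in that direction. Per length, the highest mean levels over all 9 libraries were those of Nat8f1 (143 FPKM), Sult1d1 (141 FPKM), Ugt2b38 (125 FPKM), Ces1f (79.1 FPKM), Ugt3a2 (71.3 FPKM) and Nat8 (64.2 FPKM). The spread between libraries was wider than most gaps in that order.

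**Figure D1:**
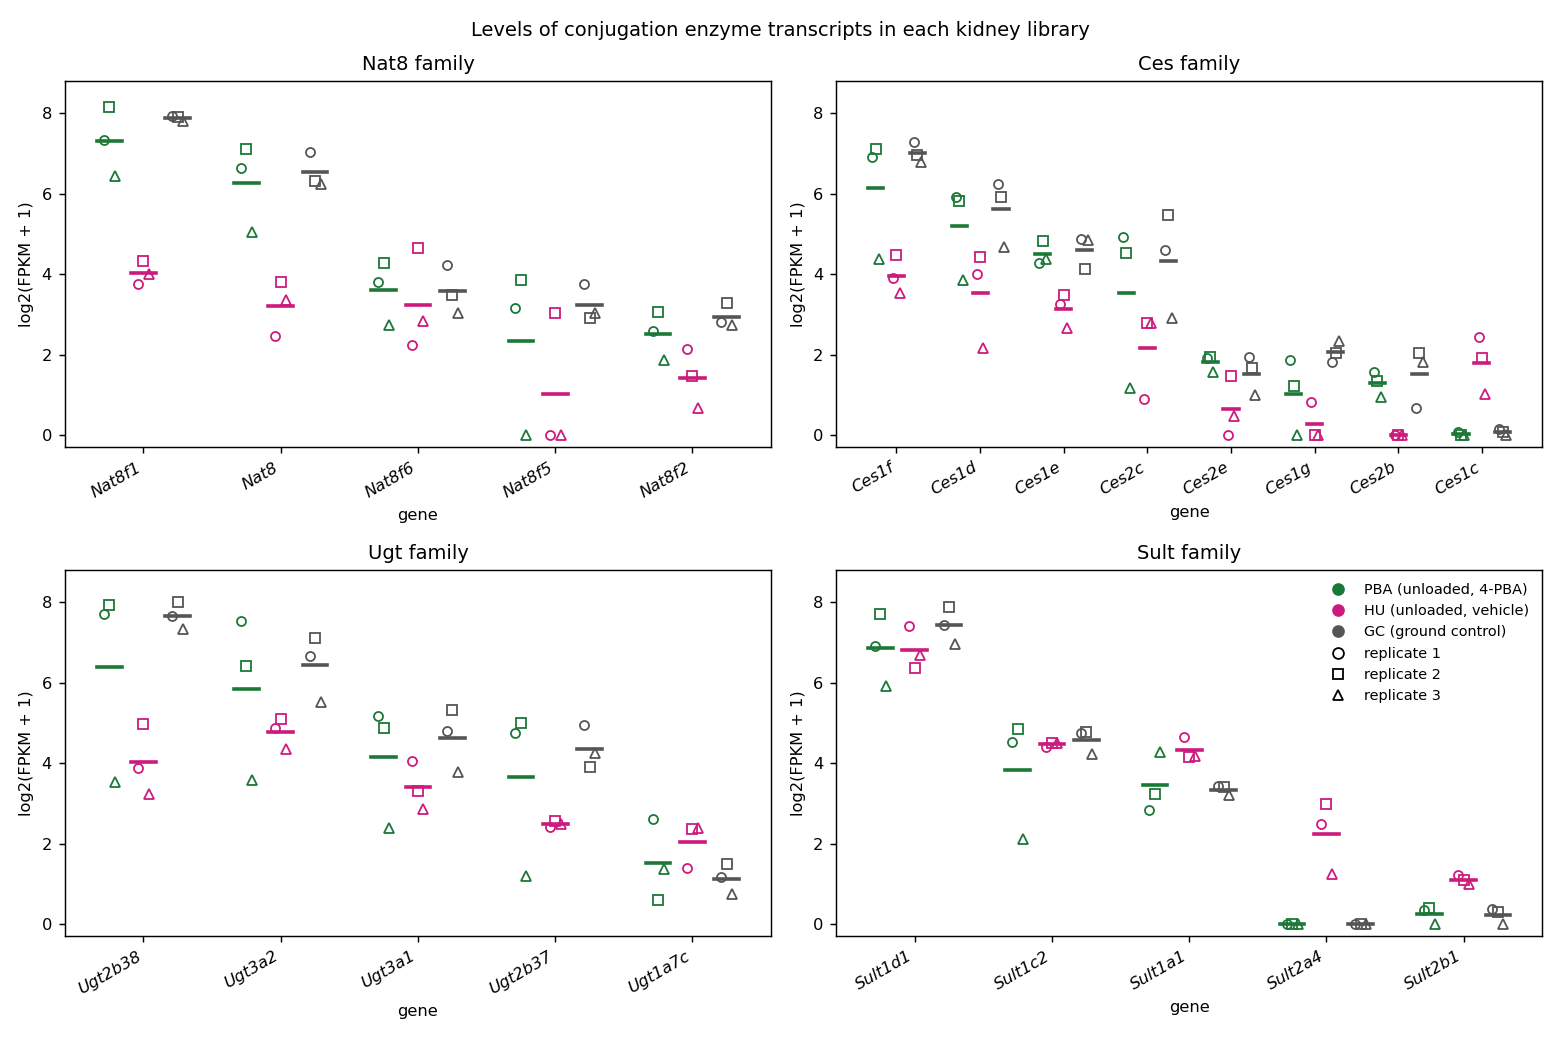
FPKM of the leading members in each of the 9 libraries, as log2(FPKM + 1), with PBA left of HU and HU left of GC; each point is 1 library and each bar the group mean of the log values. Nat8f1 stood between 85.5 and 286 FPKM in PBA libraries, 12.5 and 19.1 in HU libraries and 221 and 245 in GC libraries, whereas Sult1d1 overlapped across groups.

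The first question was how these enzymes differed between unloaded, vehicle-treated kidneys and ground controls. GC received neither suspension nor vehicle, so the parts of the 2 in this comparison cannot be told apart. In HU kidneys, against GC, 7 members fell and 2 rose (limma on log2(FPKM + 1), adjusted p under 0.05 over all 12642 genes tested), and 20 did not pass. Among all genes tested, 4.90% fell and 5.32% rose. At an unadjusted p under 0.05 there were 13 of 29 members, Ces1c and Sult2a4 among them, beside 29.8% of all genes. The 7 that fell were Nat8f1, Nat8, Nat8f2, Ces1f, Ces1e, Ces1g and Ces2b. The 2 that rose were Ces1c and Sult2a4, whose direction was set by the filter, so nothing is read from their calls. No Ugt gene passed. The median difference, in log2(FPKM + 1), was -0.96 for the 8 Nat8 genes, -1.51 for the 9 Ces genes and -1.22 for the 7 Ugt genes, beside -0.03 for all genes. Without Ces1c the Ces median was -1.65 over 8 genes. For the Sult genes it was -0.11 over the 3 that passed the filter through several groups; the 5 tested, with Sult2a4 and Sult2b1, gave 0.88, a direction set by the filter. In 12 members every HU library lay below every GC library, and in 4 above, while 19.4% of all genes lay below and 18.3% above; 3 of those 4 are the members that passed through HU alone. The count of 7 depended on single libraries: it was 11 without PBA3, 4 without HU2, 2 without HU3, 2 without GC1, 3 without GC2 and 1 without GC3. The share of all genes that fell moved as well, to 9.40% without PBA3, 4.48% without HU2, 2.37% without HU3, 0.229% without GC1, 0.925% without GC2 and 0.396% without GC3.

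Nat8f1 (ENSMUSG00000057103, chr6:85910154-85915687, mm10, minus strand) encodes a camello-like relative of Nat8. It had 12.5, 19.1 and 15.0 FPKM in HU libraries, against 245, 238 and 221 FPKM in GC libraries. The HU values rested on 100, 80 and 137 reads, and the groups were far apart. Mean levels were 15.5 ± 3.36 FPKM in HU and 235 ± 12.0 FPKM in GC (SD, n = 3 each). The difference was -3.85 ± 0.41 in log2(FPKM + 1) (SE; limma, adjusted p = 0.00319), and it passed in 22 of 22 other settings. With the mitochondrial share of reads as a covariate it was -3.12 (limma adjusted p = 0.0425), when no other member fell.

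Nat8 (ENSMUSG00000030004, chr6:85830388-85832082, minus strand), the cysteine conjugate acetyltransferase itself, had 4.47, 12.9 and 9.19 FPKM in HU libraries, from 30, 45 and 70 reads, against 131, 78.5 and 74.3 FPKM in GC libraries. No HU value came near a GC value. The difference was -3.33 ± 0.55 (log2, SE; limma adjusted p = 0.0126) and passed in 19 of 22 settings. Nat8f2 had 3.40, 1.75 and 0.581 FPKM in HU libraries, against 6.04, 8.71 and 5.62 FPKM in GC libraries. Its groups did not overlap, but its call was marginal: the difference of -1.52 ± 0.42 (log2, limma adjusted p = 0.0494) passed in 7 of 22 settings.

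The rest of the family on chromosome 6 did not pass. Nat8f6 had 3.75, 24.2 and 6.08 FPKM in HU libraries, against 17.8, 10.2 and 7.21 in GC libraries, with HU2 the highest of all. Nat8f5 was listed at 0 in HU1 and HU3 and at 7.17 FPKM in HU2, against 12.5, 6.56 and 7.23 FPKM in GC libraries. The same HU library was high for both, and their groups overlapped. These relatives can share reads: the share of 50-base stretches found in another gene was 68.0% in Nat8f6, 82.3% in Nat8f7 and 52.1% in Nat8f3, but 14.6% in Nat8f1 and 5.68% in Nat8. In other families it was 37.4% in Ugt2b38, 36.1% in Ces2c, 25.5% in Sult2a4 and 18.3% in Ugt2b37, but 0.903% in Ces1f and 0 in Sult1d1. Nat8l, which makes N-acetylaspartate in neurons, did not exceed 0.670 FPKM.

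Of the carboxylesterases, Ces1f (ENSMUSG00000031725, chr8:93256236-93279747, minus strand) had the highest mean level per length. It had 14.0, 21.1 and 10.5 FPKM in HU libraries, against 156, 123 and 110.0 FPKM in GC libraries. The groups did not overlap, and the difference was -3.05 ± 0.64 (log2, limma adjusted p = 0.0230; it passed in 16 of 22 settings). Ces1e, known in mouse as egasyn, which holds beta-glucuronidase in the endoplasmic reticulum, had 8.49, 10.1 and 5.32 FPKM in HU libraries, against 28.1, 16.4 and 27.9 FPKM in GC libraries. It too was lower in every HU library, by -1.48 ± 0.32 (log2, limma adjusted p = 0.0249; it passed in 16 of 22 settings). Gusb, the beta-glucuronidase gene, had 5.93, 7.35 and 5.38 FPKM in HU libraries, against 4.53, 3.53 and 4.00 in GC libraries, a difference of 0.52 (log2, limma adjusted p = 0.369).

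Ces1d, a triacylglycerol hydrolase of liver and fat, had 15.1, 20.6 and 3.48 FPKM in HU libraries, against 74.8, 59.5 and 24.7 FPKM in GC libraries. GC3 lay nearest to HU, and the difference of -2.08 did not pass (log2, limma adjusted p = 0.0926). Ces2c had 0.875, 5.87 and 5.90 FPKM in HU libraries, against 23.2, 43.1 and 6.48 FPKM in GC libraries. GC3 again lay next to the HU values (difference -2.16, limma adjusted p = 0.185).

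Among the scarce carboxylesterases, Ces2b was listed at 0 in all 3 HU libraries, against 0.603, 3.14 and 2.52 FPKM in GC libraries, and it passed (limma adjusted p = 0.0355). Ces1g, a lipid-regulating esterase of liver, was listed at 0.771, 0 and 0 FPKM in HU libraries, against 2.54, 3.13 and 4.05 in GC libraries (-1.79 ± 0.46 in log2, limma adjusted p = 0.0398). Both calls held in 9 of 22 settings. Ces2e, at 0, 1.79 and 0.382 FPKM in HU libraries, against 2.84, 2.17 and 0.981 in GC libraries, overlapped.

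Ces1c, the esterase that mouse liver secretes into plasma, moved the other way. It had 4.40, 2.77 and 1.02 FPKM in HU libraries, from 61, 20 and 16 reads, against 0.111, 0.0539 and 0 FPKM in GC libraries (1.71 ± 0.36 in log2(FPKM + 1), limma adjusted p = 0.0242). Sult2a4, of the subfamily that sulfates hydroxysteroids and bile acids, had 4.60, 6.86 and 1.35 FPKM in HU libraries, from 27, 21 and 9 reads, and was listed at 0 in every GC library (limma adjusted p = 0.0160). Both genes were thus present in each HU library and at or near 0 elsewhere. Against GC, Ces1c passed in 15 of 21 settings and Sult2a4 in 17 of 22, and neither passed without GC1, GC2 or GC3 or with the mitochondrial covariate. Both reached the level for testing only through HU, so nothing is read from these calls or counts. The liver transcript Alb was at 42.6, 9.60 and 4.34 FPKM in HU libraries, against 1.62, 1.03 and 1.25 in GC libraries. Of 14 liver markers, 3 lay above GC in every HU library (Alb, Ahsg and Mup20) and 4 below (Apoc3, Ttr, Serpina1a and Cyp2e1). Of all genes tested, 18.3% lay above and 19.4% below. Only 8 of the 14 markers were tested, and Ahsg and Mup20 were not among them, so the sets are unlike. The sum of the 14, of which Cyp2e1 and Ttr made up most in GC, was 76.0 to 198 FPKM in HU and 278 to 585 in GC libraries. Ces1b and Ugt2b36 were also highest in HU1, at 2.22 and 1.79 FPKM. The part of liver transcripts in these results was not tested.

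Of the 7 sugar transferases tested, 6 had a negative difference in HU against GC and none passed. Ugt2b38 (ENSMUSG00000061906, chr5:87409942-87424203, minus strand), of the subfamily that glucuronidates steroids, had 13.8, 30.6 and 8.42 FPKM in HU libraries, against 200.5, 257 and 159 FPKM in GC libraries. The groups were far apart, yet the wide spread in PBA entered the shared error, and the difference of -3.63 ± 1.01 missed the threshold (log2, limma adjusted p = 0.0505). Without PBA3 the same difference had a limma adjusted p of 0.00159. Ugt2b37 had 4.33, 4.92 and 4.59 FPKM in HU libraries, against 29.7, 13.9 and 17.9 in GC libraries, without overlap (-1.87, limma adjusted p = 0.172).

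Ugt3a1 and Ugt3a2 are an unusual pair that use other sugars than glucuronic acid. Ugt3a2 had 28.5, 33.0 and 19.3 FPKM in HU libraries, against 100.0, 136 and 45.0 in GC libraries, with no overlap (-1.65, limma adjusted p = 0.226). Ugt3a1 had 15.6, 8.90 and 6.24 FPKM in HU libraries, against 26.7, 38.7 and 12.7 in GC libraries, and overlapped. Ugt1a7c, the one Ugt1a gene tested, had 1.63, 4.11 and 4.19 FPKM in HU libraries, against 1.23, 1.81 and 0.671 in GC libraries. It is uncertain: the 9 Ugt1a genes share 50.3% to 60.6% of their exon bases, and Ugt1a7c was given all but 106 of their 1267 reads.

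The most abundant sulfotransferases overlapped between HU and GC. Sult1d1 (ENSMUSG00000029273, chr5:87554645-87569027, minus strand), which sulfates catecholamines in mouse, had 169, 81.5 and 102 FPKM in HU libraries, against 173, 235 and 124 FPKM in GC libraries. The groups overlapped, with a difference of -0.61 ± 0.48 (log2, limma adjusted p = 0.424). Sult1c2 had 20.1, 21.8 and 21.6 FPKM in HU libraries, against 25.7, 26.5 and 17.8 in GC libraries, and also overlapped. Sult1a1, a phenol sulfotransferase, had 24.1, 16.8 and 17.1 FPKM in HU libraries, against 9.79, 9.53 and 8.18 FPKM in GC libraries. It was higher in every HU library, but the difference of 0.99 ± 0.36 did not pass (log2, limma adjusted p = 0.105) and was at -0.00 when values were scaled to total reads. Sult2b1, a cholesterol and pregnenolone sulfotransferase, had 1.31, 1.14 and 1.01 FPKM in HU libraries, against 0.299, 0.233 and 0 in GC libraries (0.88, limma adjusted p = 0.0724).

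**Figure D2:**
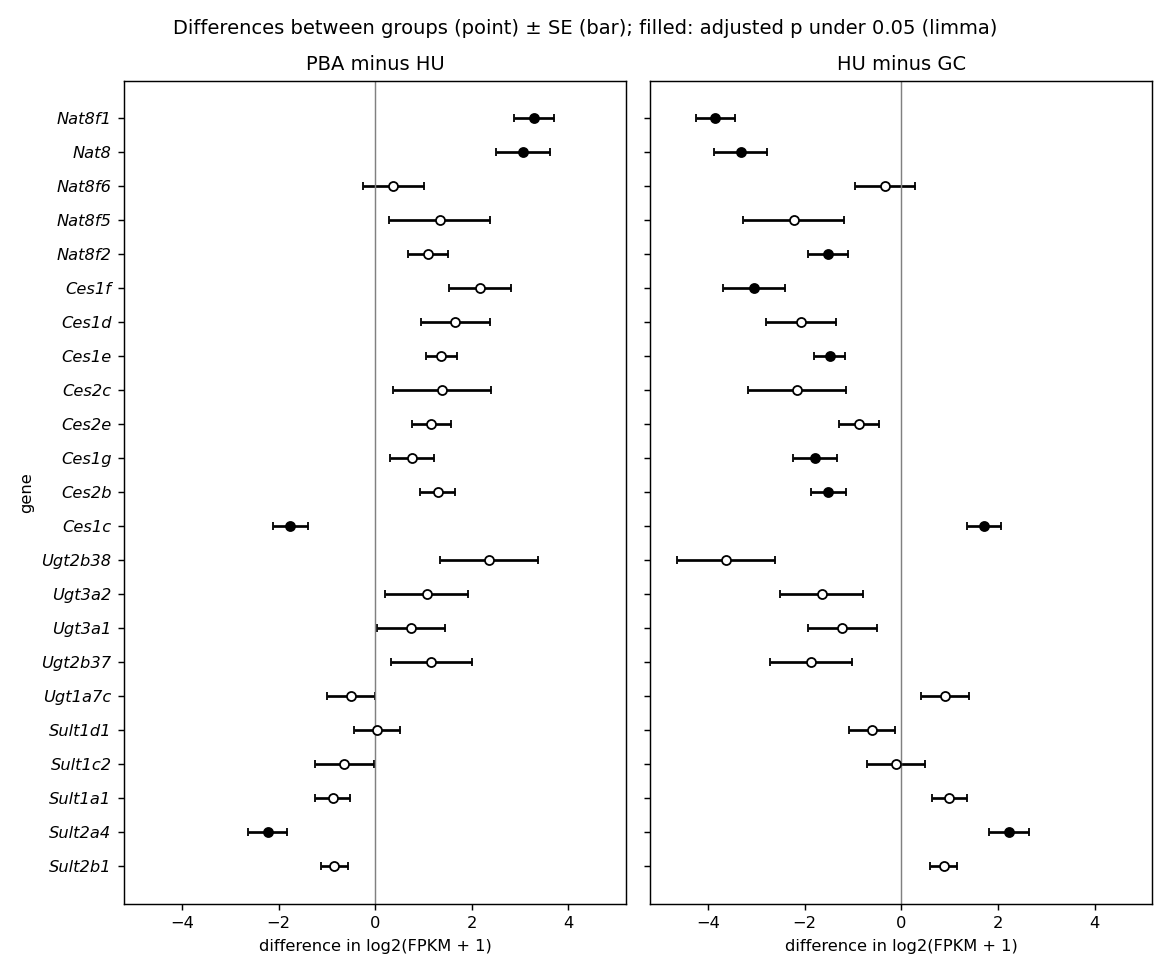
Differences in log2(FPKM + 1) of the 23 named members, PBA minus HU and HU minus GC, with bars of 1 standard error and filled points where the limma adjusted p was under 0.05. Nat8f1 and Nat8 lie at 3.29 and 3.06 for PBA minus HU and at -3.85 and -3.33 for HU minus GC.

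The second question was what 4-PBA did in unloaded kidneys. In PBA kidneys, against HU, 2 members rose (Nat8f1 and Nat8), 2 fell (Ces1c and Sult2a4) and 25 did not pass (limma, adjusted p under 0.05 over all genes tested), while 1.16% of all genes rose and 1.53% fell. At an unadjusted p under 0.05 there were 13 of 29 members, beside 20.1% of all genes. The 2 that fell are among the 13, and their direction was set by the filter, so nothing is read from their calls. Medians in log2(FPKM + 1) were 0.94 for Nat8, 1.29 for Ces and 0.84 for Ugt genes, beside 0.02 for all genes. Without Ces1c the Ces median was 1.33 over 8 genes. For Sult genes the median was -0.64 over the 3 that passed the filter through several groups and -0.85 over the 5 tested. PBA lay above HU in every library for 6 members (Nat8f1, Nat8, Nat8f3, Ces1e, Ces2b and Ces2e), against 10.1% of all genes. It lay below for 3 (Ces1c, Sult2a4 and Sult2b1; 10.2% of all genes), but these are the members tested because HU was high, so nothing is read from that count. HU libraries enter both this comparison and the one with GC, and their values for each member are the same ones.

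Nat8f1 had 161, 286 and 85.5 FPKM in PBA libraries, against 12.5, 19.1 and 15.0 FPKM in HU libraries. Even the lowest PBA library, PBA3, stood well above HU, and the difference was 3.29 ± 0.41 (log2, SE; limma adjusted p = 0.00803). It passed in 20 of 22 settings, among them each single library left out and the mitochondrial covariate (2.63, limma adjusted p = 0.0440). Nat8 had 98.2, 138 and 31.8 FPKM in PBA libraries, against 4.47, 12.9 and 9.19 FPKM in HU libraries, again without overlap (3.06 ± 0.55, limma adjusted p = 0.0253; 12 of 22 settings). Ces1c was listed at 0.0517, 0 and 0 FPKM in PBA libraries, against 4.40, 2.77 and 1.02 in HU libraries (-1.76 ± 0.36, limma adjusted p = 0.0416). Sult2a4 was listed at 0 in every PBA library (limma adjusted p = 0.0285), and so were the liver transcripts Ahsg and Mup20. The liver markers went both ways: of 14, 5 lay below HU in every PBA library, Ahsg and Mup20 among them, and 3 lay above. Of all genes tested, 10.2% lay below and 10.1% above, but only 8 of the 14 markers reached the level for testing. Against HU, Ces1c passed in 8 of 21 settings and Sult2a4 in 10 of 22. As both were tested because HU was high, nothing is read from these calls or counts.

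PBA3 lay apart from PBA1 and PBA2 in many members. It was the lower one in 21 of the 29 tested members, beside 44.2% of all genes tested. It was nearer to the HU mean than to the GC mean in 17 of 29, beside 53.1% of all genes. Without PBA3 the members that rose numbered 7 (Nat8f1, Nat8, Ces1f, Ces1e, Ugt2b38, Ugt2b37 and Ugt3a2), when 5.32% of all genes rose. Without both PBA3 and GC3 it was 8, when 4.64% of all genes rose. The count, 2 with all libraries, was 1 (Nat8f1) without PBA1, PBA2, HU1, HU3, GC2 or GC3, when 0.0475% to 0.617% of all genes rose. PBA3 had a mitochondrial share of 67.1%, within the HU range, and the part of that share was not tested beyond the covariate.

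The split within PBA was plainest in the sugar transferases and Ces1f. Ugt2b38 had 208, 241 and 10.6 FPKM in PBA libraries, against 13.8, 30.6 and 8.42 in HU libraries, so PBA3 fell inside the HU range (2.35 ± 1.01, limma adjusted p = 0.231; without PBA3 3.78, limma adjusted p = 0.00334). Ces1f had 119, 138 and 19.8 FPKM in PBA libraries, against 14.0, 21.1 and 10.5 in HU libraries, with PBA3 again inside (2.17 ± 0.64, limma adjusted p = 0.107; without PBA3 3.05, limma adjusted p = 0.00220). Ugt3a2 had 185, 84.6 and 11.0 FPKM in PBA libraries, against 28.5, 33.0 and 19.3 in HU libraries. PBA3 was lower there than any HU library. Ugt2b37, at 26.0, 31.1 and 1.27 FPKM in PBA libraries, against 4.33, 4.92 and 4.59 in HU libraries, showed the same split.

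Ces1e did not follow that split. It had 18.3, 27.2 and 19.9 FPKM in PBA libraries, against 8.49, 10.1 and 5.32 in HU libraries, all apart, with a difference of 1.37 ± 0.32 that narrowly missed the threshold (log2, limma adjusted p = 0.0561). Ces1d had 59.7, 55.2 and 13.5 FPKM in PBA libraries, against 15.1, 20.6 and 3.48 in HU libraries. Ces2c had 29.2, 21.9 and 1.26 FPKM in PBA libraries, against 0.875, 5.87 and 5.90 in HU libraries. For Ces1d and Ces2c, PBA1 and PBA2 were high and PBA3 lay among HU.

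The scarce Ces2b, Ces2e and Ces1g did not pass. Ces2b was at 1.94, 1.56 and 0.941 FPKM in PBA libraries, against 0 in all HU libraries (limma adjusted p = 0.103). Ces2e was at 2.76, 2.84 and 1.96 FPKM in PBA libraries, against 0, 1.79 and 0.382 in HU libraries. Both were higher in every PBA library. Ces1g, at 2.67, 1.33 and 0 FPKM in PBA libraries, against 0.771, 0 and 0 in HU libraries, overlapped.

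Nat8f2, Nat8f5, Nat8f6, Ugt3a1 and Ugt1a7c overlapped between PBA and HU. Nat8f2 had 5.01, 7.29 and 2.67 FPKM in PBA libraries, against 3.40, 1.75 and 0.581 in HU libraries (1.09 ± 0.42, limma adjusted p = 0.194). Nat8f5 had 7.96, 13.4 and 0 FPKM in PBA libraries, against 0, 7.17 and 0 in HU libraries. Nat8f6 had 13.0, 18.4 and 5.67 FPKM in PBA libraries, against 3.75, 24.2 and 6.08 in HU libraries. In both, PBA3 was the lowest PBA library and HU2 the highest HU library. Ugt3a1 had 35.2, 28.2 and 4.26 FPKM in PBA libraries, against 15.6, 8.90 and 6.24 in HU libraries, and Ugt1a7c had 5.13, 0.506 and 1.60, against 1.63, 4.11 and 4.19.

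Of the sulfotransferases, Sult1d1 had 120.1, 208 and 59.5 FPKM in PBA libraries, against 169, 81.5 and 102 FPKM in HU libraries, a difference of 0.03 ± 0.48 (log2, limma adjusted p = 0.984). Its PBA libraries spanned the HU range on both sides. Sult1c2 had 22.2, 27.7 and 3.30 FPKM in PBA libraries, against 20.1, 21.8 and 21.6 in HU libraries, with PBA3 alone low. Sult1a1 had 6.17, 8.39 and 18.4 FPKM in PBA libraries, against 24.1, 16.8 and 17.1 in HU libraries (-0.88, limma adjusted p = 0.213). Here PBA3 was the high library. Sult2b1 was at 0.284, 0.320 and 0 FPKM in PBA libraries, below the HU libraries at 1.31, 1.14 and 1.01. The 6 tested members not named for their level or call (Nat8f3, Nat8f4, Nat8f7, Ces2h, Ugt2b5 and Ugt2b34) stayed at or under 7.13 FPKM, with differences from -1.16 to -0.05 for HU minus GC and from -0.39 to 0.84 for PBA minus HU.

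The third comparison set treated, unloaded kidneys against ground controls. In PBA, against GC, 0 of the 29 members passed by limma, and 0 had an unadjusted p under 0.05. Of all genes tested, 0 passed after adjustment and 1.31% had an unadjusted p under 0.05. In 0 members did PBA lie above or below GC in every library, which it did in 4.37% and 3.63% of all genes. Differences were -0.57 ± 0.41 for Nat8f1, -0.27 ± 0.55 for Nat8 and -0.88 ± 0.64 for Ces1f (log2, SE). With a PBA library that stands apart, these intervals are wide: a miss does not show that the levels were equal.

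**Figure D3:**
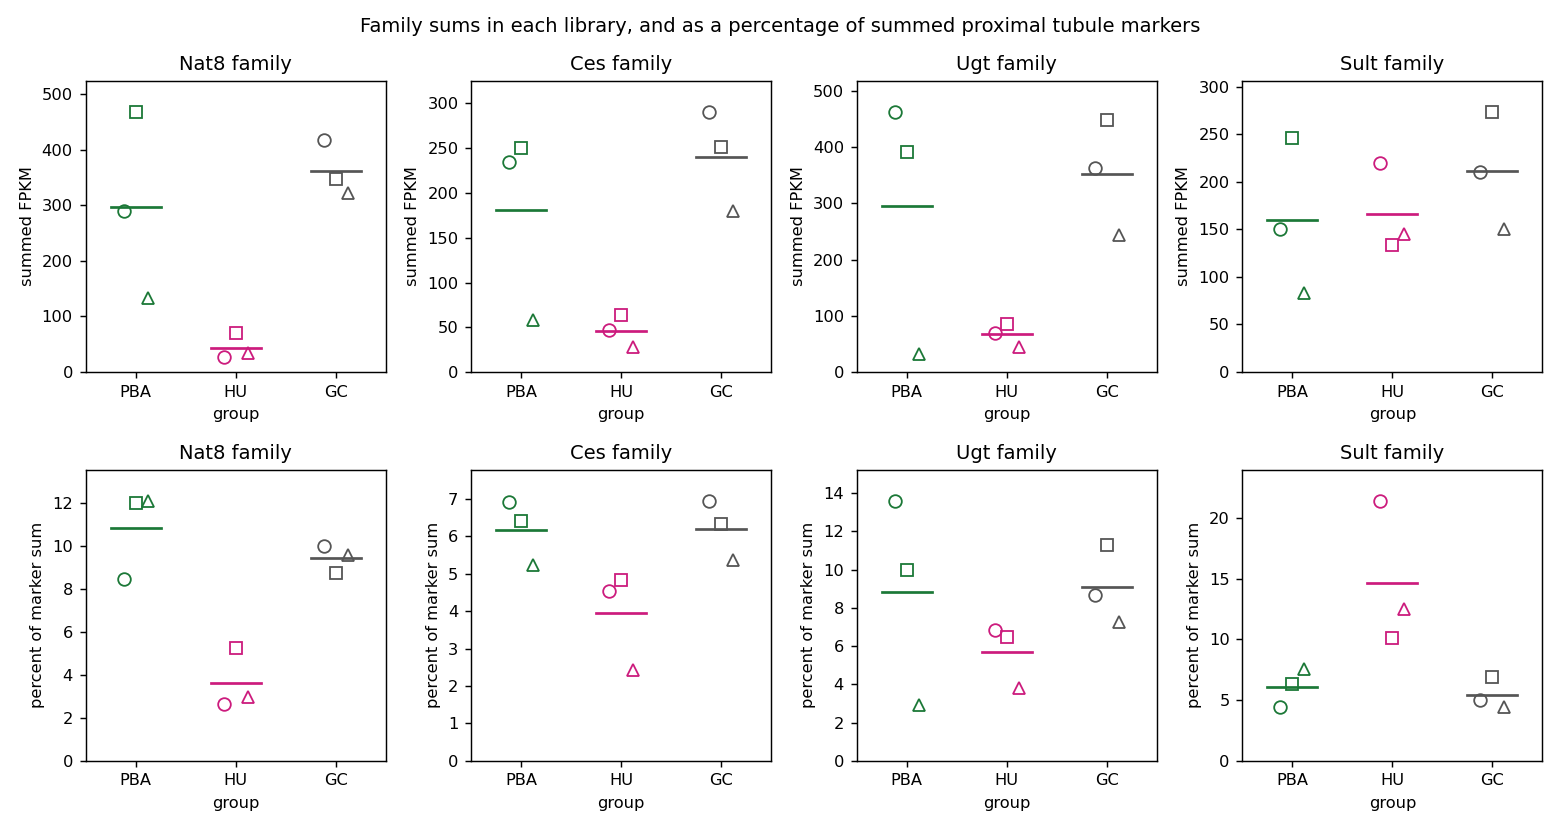
Summed FPKM of each family in every library (top) and the same sum as a percentage of the summed FPKM of 14 proximal tubule markers (bottom), with PBA left of HU and HU left of GC; points are libraries and bars group means. As a percentage, Nat8 lay between 8.48% and 12.1% in PBA libraries and 2.64% and 5.24% in HU libraries, beside 8.74% to 9.99% in GC libraries.

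The proximal tubule markers moved too, with 9 of 14 lower in HU than in GC (limma, adjusted p under 0.05) and a median difference of -2.31 in log2(FPKM + 1). Of all genes tested, 4.90% were lower. The Nat8 sum itself was 289, 467 and 134 FPKM in PBA libraries, 27.2, 69.6 and 34.6 in HU libraries and 417, 347 and 321 in GC libraries. The families were also set against the summed level of those 14 markers in each library, as a description. The Nat8 sum was 8.48%, 12.0% and 12.1% of the marker sum in PBA libraries, 2.64%, 5.24% and 2.98% in HU libraries and 9.99%, 8.74% and 9.58% in GC libraries. PBA3 was on the side of PBA1 and PBA2 by this measure, and HU was apart from both groups. The Ces sum was 6.91%, 6.41% and 5.23% in PBA libraries, 4.55%, 4.84% and 2.43% in HU libraries and 6.95%, 6.32% and 5.36% in GC libraries. HU lay below both other groups without overlap, though by less than for Nat8. The Ugt sum, at 13.6%, 10.0% and 2.92% in PBA libraries, 6.83%, 6.50% and 3.82% in HU libraries and 8.70%, 11.3% and 7.28% in GC libraries, put PBA3 below every HU library. The Sult sum was 4.41%, 6.29% and 7.55% in PBA libraries, 21.4%, 10.1% and 12.5% in HU libraries and 5.03%, 6.87% and 4.47% in GC libraries. Sult had the larger share in every HU library, but its sum did not follow: it was 150.0, 246 and 83.5 FPKM in PBA libraries, 220.0, 134 and 145 in HU libraries and 210.2, 273 and 150.0 in GC libraries, and overlapped. The marker sum under the share was lower in HU.

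Within families, the leading gene changed weight. Nat8f1 made up 59.9% of the mean Nat8 sum in PBA, 35.5% in HU and 64.8% in GC. Ugt2b38 led the Ugt sum in PBA (52.0%) and GC (58.3%), whereas Ugt3a2 led it in HU (40.3%). Ces1f made up 51.0% of the Ces sum in PBA, 32.8% in HU and 53.9% in GC. Sult1d1 led throughout, with 80.8% in PBA, 70.6% in HU and 84.0% in GC.

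Genes that feed or follow these enzymes were read from 5 lists. Around Nat8, on the route from glutathione conjugates to mercapturates, 4 of 14 tested genes fell in HU against GC and 1 rose, and 0 passed in PBA against HU (limma; 4.90% and 5.32% of all genes fell and rose). Ggt1, which opens the route by removing glutamate, had 31.7, 147 and 34.7 FPKM in HU libraries, against 308, 206 and 285 in GC libraries (-2.24 ± 0.54, limma adjusted p = 0.0326). Cndp2, a dipeptidase, had 65.8, 103 and 122 FPKM in HU libraries, against 538, 542 and 464 in GC libraries (-2.44 ± 0.57, adjusted p = 0.0297). Slc33a1, which brings acetyl-CoA into the endoplasmic reticulum, had 1.89, 3.71 and 5.19 FPKM in HU libraries, against 17.1, 31.6 and 18.7 in GC libraries (-2.37 ± 0.47, adjusted p = 0.0193). All 3 were lower in every HU library, and Kyat1, a cysteine conjugate lyase, fell by 1.49 in log2. Dpep1, which splits cysteinylglycine conjugates, rose: it had 119.8, 211 and 170.1 FPKM in HU libraries, against 42.4, 47.1 and 47.0 in GC libraries (1.82 ± 0.43, adjusted p = 0.0300).

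For sulfate and PAPS supply, 2 of 11 genes fell in HU against GC, and both rose in PBA against HU (limma; 4.90% of all genes fell in HU and 1.16% rose in PBA). Slc13a1, the sodium-sulfate cotransporter of the proximal tubule, had 13.0, 20.9 and 5.67 FPKM in PBA libraries, 0.889, 2.20 and 2.78 in HU libraries and 21.7, 40.6 and 18.3 in GC libraries. Slc35b2, which carries PAPS into the Golgi, had 12.1, 13.2 and 12.1 FPKM in PBA libraries, 4.91, 6.73 and 2.90 in HU libraries and 11.5, 13.0 and 10.6 in GC libraries. HU was the low group without overlap for both, and PBA minus HU was 2.16 ± 0.48 for Slc13a1 (limma adjusted p = 0.0479) and 1.26 ± 0.28 for Slc35b2 (adjusted p = 0.0476). The PAPS synthases did not pass, and their differences had opposite signs. Papss2 had 33.2, 31.6 and 35.0 FPKM in HU libraries, against 63.7, 60.0 and 38.1 in GC libraries (-0.65, limma adjusted p = 0.267). Papss1 had 18.7, 14.3 and 25.5 FPKM in HU libraries, against 10.8, 16.1 and 9.24 in GC libraries (0.65, limma adjusted p = 0.255).

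For glucuronic acid supply and release, 1 of 9 genes fell in HU against GC, beside 4.90% of all genes. It was Miox, the myo-inositol oxygenase that makes glucuronate in the proximal tubule, at 196, 248 and 264 FPKM in HU libraries, against 1090.1, 1071 and 995 in GC libraries (-2.16 ± 0.44, limma adjusted p = 0.0209). Ugdh, which makes the sugar donor of the Ugt enzymes, overlapped at 13.4, 7.19 and 7.36 FPKM in HU libraries, against 10.4, 10.0 and 5.80 in GC libraries. No gene of this list passed in PBA against HU, when 1.16% of all genes rose and 1.53% fell.

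Among other conjugation and hydrolysis enzymes, 3 of 14 fell in HU against GC and 0 passed in PBA against HU (limma). Of all genes, 4.90% fell in HU, while 1.16% rose and 1.53% fell in PBA. Aadac, an esterase of the endoplasmic reticulum, had 0, 14.8 and 8.35 FPKM in HU libraries, against 77.9, 79.4 and 67.3 in GC libraries (-3.84 ± 0.96, adjusted p = 0.0372). Inmt, an indole N-methyltransferase, fell by 2.21 and Ephx2, the soluble epoxide hydrolase, by 1.99 in log2(FPKM + 1).

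Among the regulators, Foxa3 rose in HU against GC (limma). Foxa3, a forkhead factor of liver and gut, had 0.0786, 0 and 2.68 FPKM in PBA libraries, 7.15, 11.5 and 4.20 in HU libraries and 0.177, 0.0410 and 0 in GC libraries. HU was the high group without overlap, and the differences were 2.92 ± 0.51 for HU minus GC (limma adjusted p = 0.0146) and -2.35 ± 0.51 for PBA minus HU (adjusted p = 0.0441). Foxa3 reached 1 FPKM only in the HU libraries and PBA3. It was thus tested because HU was high, so nothing is read from these calls. Hnf4a, at 34.9, 60.8 and 54.9 FPKM in HU libraries, against 58.6, 46.7 and 39.7 in GC libraries, did not pass (0.03, adjusted p = 0.967).

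**Figure D4:**
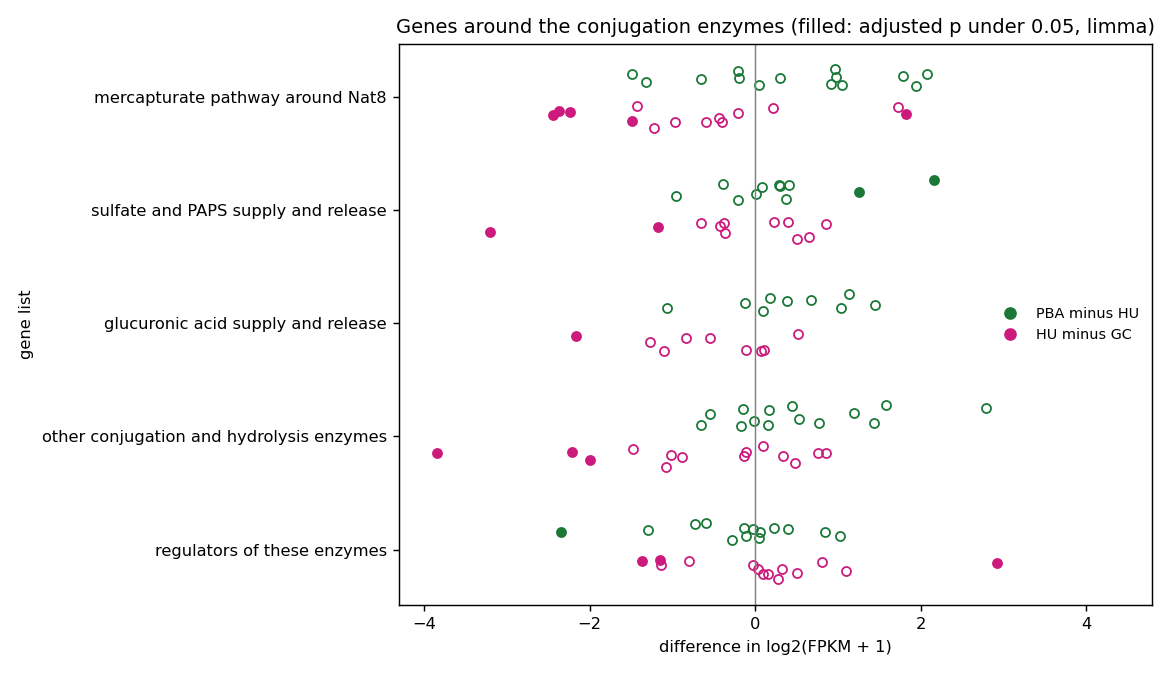
Differences in log2(FPKM + 1) of the tested genes of the 5 lists, PBA minus HU above HU minus GC in each list, with filled points where the limma adjusted p was under 0.05. Most points lie within 1 unit of 0, and the filled ones run from Aadac at -3.84 to Foxa3 at 2.92, both for HU minus GC. Foxa3 was tested because HU was high.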

How the data were processed

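The labels' protocols describe poly(A)-selected, strand-marked libraries of kidney RNA from 9 samples. CASAVA, cutadapt, HISAT2 and the mm10 genome are named by the submitters' processing notes; for their versions and for the read counter nothing was found in the labels or headers. The authors deposited 1 table of FPKM for 54532 genes. Reads were recovered from each deposited value, its gene length and a constant of its library, and 100% of values came out whole within 0.01. A floor of 3 reads equals 2.33e-05% (GC2) to 0.000191% (HU2) of the non-mitochondrial reads and covers counting error only.

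Genes with at least 1 FPKM in at least 3 libraries were tested on log2(FPKM + 1) by limma 3.58.1 (R 4.3.3), with all 3 groups in 1 fit, a mean-variance trend and Benjamini-Hochberg adjustment over 12642 genes, as planned for a table without counts. Such differences understate the change of low genes. Values are given for the 5 highest tested members of each family and every member past 0.05, and for at most 4 passing genes a list. Gusb, Ugdh, Papss1, Papss2, Hnf4a and members singled out for overlap or for one library were added after their values were seen. The members and lists were chosen with earlier results of these data known. Coordinates and lengths of all 66 members equal those of GENCODE M21. Listed genes with no matching symbol were not analysed here. Some listed regulators are not reported here. The steps were tested on simulated data. Alternatives were other scalings, filters, pseudocounts, covariates and sample sets. Figures used matplotlib 3.10.9 (Python 3.11.15).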

Additional observations from a re-analysis of the deposited data

How the results depend on the processing

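Over 22 alternatives the members lower in HU than in GC numbered 2 with no filter, 4 with a mean of at least 1 FPKM, 11 scaled by total reads, 1 with mitochondrial share as a covariate, 14 with library weights, and 1 to 11 without single libraries, beside 7. The share of all genes lower moved with it: 0.326%, 4.16%, 16.1%, 0.403%, 15.6% in the first 5 of these settings, beside 4.90%. Those higher in PBA than in HU numbered 0 with no filter, 1 by limma-voom, 0 with only the 2 groups compared, 1 with the mitochondrial covariate, 13 with library weights, 8 without both PBA3 and GC3, and 1 to 7 without single libraries, beside 2; of all genes 0.00987%, 1.06%, 0.0158%, 0.388%, 7.82% and 4.64% were higher in the first 6 of these, beside 1.16%. The comparison of PBA with GC gave 0 in all. The cause of these shifts was not tested; mitochondrial share and group largely coincide, so they cannot be told apart.

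Differences that changed sign were all short of the threshold in the reported analysis. With the mitochondrial covariate, HU minus GC became 0.51 for Ces2c, 0.38 for Nat8f6, 0.50 for Sult1d1, 1.51 for Sult1c2, 0.62 for Ugt3a2, 0.67 for Ugt3a1 and 0.20 for Ugt2b37. PBA minus HU became -1.04 for Ces2c, -0.29 for Nat8f6, -0.13 for Nat8f5, -0.97 for Sult1d1, -0.98 for Ugt3a2, -0.96 for Ugt3a1 and -0.71 for Ugt2b37. Scaling by total reads moved the median of all genes to -0.78 for HU minus GC and 0.71 for PBA minus HU; it put Sult1a1 at -0.00 and 0.02, and PBA minus HU at 0.33 for Sult1c2 and 0.17 for Ugt1a7c. Scaling by reads outside the mitochondrial genome gave 0.10 for Sult1c2 (HU minus GC) and -0.11 for Sult1d1 (PBA minus HU). Limma-voom gave -0.01 for Sult1d1, and library weights gave 0.03 for Sult1c2. Without single libraries, Nat8f6 ran from -1.05 to 0.15 for HU minus GC; for PBA minus HU it ran from -0.13 to 1.07, Sult1d1 from -0.40 to 0.49 and Sult1c2 from -1.15 to 0.22, and at 0.22 without both PBA3 and GC3.

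Replicate numbers did not pair the samples: deviations of same-numbered libraries correlated between -0.196 and 0.288. With the replicate block, 7 members were lower in HU than in GC, when 3.48% of all genes were lower. Of the 7, 5 were shared with the analysis without the block (Ces1g and Ces2b were lost, Ces1d and Ugt2b38 gained). In PBA against HU, 3 were higher (Nat8f1, Nat8 and Ces1d), and 0 lower, as Ces1c and Sult2a4 were lost. Of all genes, 0.427% were higher and 0.657% lower.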
